A study of Mus musculus with 18 samples.

Results

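The genes described here carry glucose and fatty acids into energy production, together with the hypoxia factors and targets that are tied to glucose use. They are 40 genes chosen by name, 25 of glycolysis and hypoxia and 15 of fatty acid use, out of 28563 genes with matched transcripts. All 40 were among the 16607 genes that passed the filter on low counts. Ventricles of mouse hearts at embryonic day 14.5 were dissected, frozen and profiled by polyA RNA-seq in 18 libraries, in a study of how the transcription factor genes Irx3 and Irx4 act in compaction of the ventricular wall. There were 3 WT libraries, 3 labelled Irx3KO (knockout of Irx3), 3 labelled Irx4KO (knockout of Irx4), 3 labelled Irx3het_Irx4het (heterozygous for both) and 6 labelled Irx3KO_Irx4KO (knockout of both). No other allele or treatment, strain background or part of each gene that is removed is given in the labels. Nor do they tie libraries to embryos, and p-values therefore cover only the scatter from library to library, part of which may be technical.

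Libraries were compared within 2 sets, which differ technically and have no name in the labels. Set 1 held the 3 WT libraries with Irx3KO_Irx4KO 5, 7 and 10. Set 2 held the other 12 libraries, with Irx3KO_Irx4KO 2, 3 and 4, and its comparisons share libraries with each other. Depth ran from 26721576 to 45946741 estimated counts. Levels are given as CPM, a gene's counts relative to its library's total after TMM scaling, and a gene was called at an adjusted p below 0.05 over all 16607 genes. Irx3KO_Irx4KO 5 stood apart from its group: its chi-square per gene against libraries 7 and 10 was 63.91 and 61.64, where other pairs within a group gave 6.306 to 27.74, and of these 3 libraries it was the highest for 39.01% and the lowest for 40.12% of all genes.

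The targeted genes were read first. Irx3 ran from 22.14 to 28.5 CPM in WT and from 22.15 to 26.38 CPM in Irx4KO libraries, from 12.83 to 13.33 CPM in the double heterozygotes, and from 2.577 to 4.33 CPM in the 9 libraries labelled as lacking it. Irx4 went against its label in both sets. In set 1 it ran from 78.75 to 125.5 CPM in WT and from 217.6 to 281.8 CPM in Irx3KO_Irx4KO. In set 2 it ran from 134.8 to 157.5 CPM in Irx3KO, from 175.9 to 190.8 CPM in the double heterozygotes, from 215.7 to 239.1 CPM in Irx4KO and from 221.2 to 237.3 CPM in Irx3KO_Irx4KO. These counts do not check the Irx4 labels where the RNA that is left is still counted, and every direction below is between libraries as labelled. The 10 cardiomyocyte markers summed to between 24570 and 30300 CPM, and the 5 markers of lung and liver epithelium to at most 1.901 CPM, in the 18 libraries.

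Glycolysis splits glucose into pyruvate, which becomes lactate or enters the mitochondrion through pyruvate dehydrogenase. Fatty acids are bound, activated, passed to carnitine and broken down by beta oxidation. The embryonic heart lives largely on glucose and lactate under low oxygen, with hypoxia-inducible factors active, and shifts towards fatty acids around birth under PPARα and its coactivator PGC-1α.

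Levels between genes were compared as TPM, the authors' estimate per transcript length. The highest medians over 18 libraries were those of Ldha, the lactate dehydrogenase form that favours lactate, at 1195 TPM, of Pkm, pyruvate kinase, at 1136 TPM and of Pgk1, phosphoglycerate kinase, at 1019 TPM. Fabp3, the heart fatty acid binding protein, stood at 648.2 TPM and was the highest of the fatty acid genes. Acadl, the long-chain acyl-CoA dehydrogenase, followed at 404.5 TPM. The factors themselves were lower. Hif1a had a median of 142.1 TPM, Ppargc1a (PGC-1α) of 34.21 TPM, Epas1 (HIF-2α) of 19.97 TPM and Ppara of 3.994 TPM. Of the 40 genes, only Adm and Ppara had medians below 10 TPM.

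**Figure D1:**
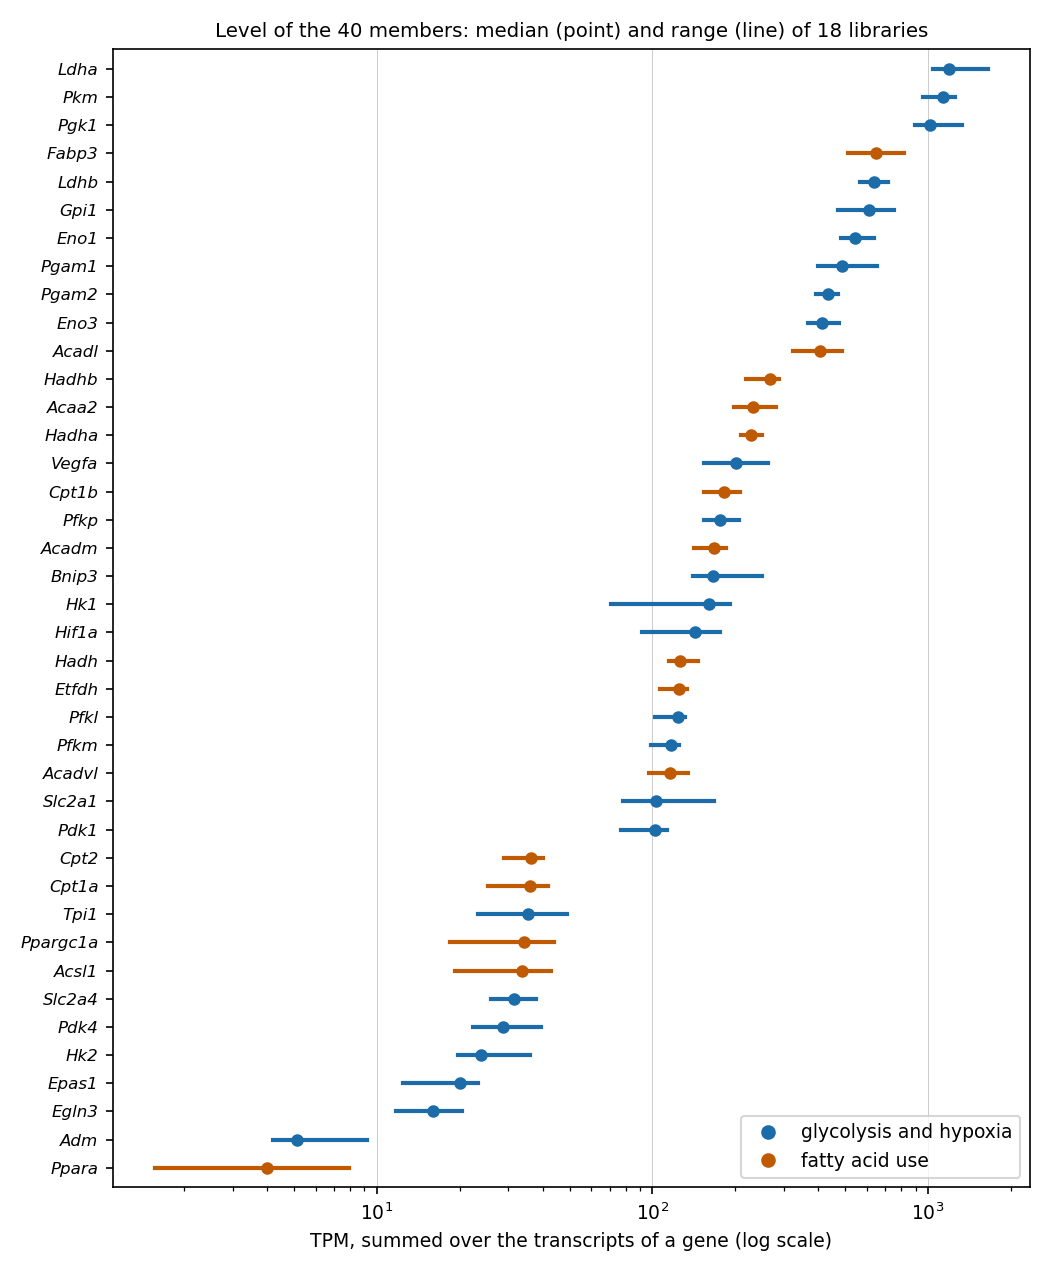
TPM of each of the 40 genes on a log axis, as the median (point) and range (line) over 18 libraries, with glycolysis and hypoxia genes and fatty acid genes in separate colours. Ldha, Pkm and Pgk1 lie highest, and Adm and Ppara lowest.

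Among enzymes that come in several forms, the shares of summed TPM differed from family to family. Hk2 made up 10.99% to 22.27% of Hk1 and Hk2, the hexokinases that trap glucose. The muscle form Pfkm gave 23.66% to 31.71% of the phosphofructokinases, the liver form Pfkl 26.43% to 32.88% and the platelet form Pfkp 38.55% to 46.17%. Protein-coding transcripts held as little as 64.05% of Pfkp counts in a library, against at least 99.22% for Pfkl and 100% for Pfkm. The Pfkp share therefore holds transcripts that are not protein-coding, and the order of the 3 enzyme forms is not shown. The muscle form Pgam2 was 38.3% to 52.31% of the phosphoglycerate mutases Pgam1 and Pgam2, and the muscle form Eno3 37.21% to 47.97% of the enolases Eno1 and Eno3. Ldhb, the form that prevails in adult heart, was 26.05% to 37.96% of the lactate dehydrogenases Ldha and Ldhb. Slc2a4, the insulin-sensitive glucose transporter GLUT4, was 13.43% to 30.81% of Slc2a4 and Slc2a1 (GLUT1), with other glucose transporters left out. Cpt1a, the liver form of the enzyme that commits fatty acids to the mitochondrion, was 12.51% to 18.37% of Cpt1a and Cpt1b, so the muscle form Cpt1b prevailed in all 18 libraries.

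Pyruvate kinase M is made in 2 forms from a pair of mutually exclusive exons, M1 of adult heart and muscle and M2 of many embryonic and growing tissues. The exons are shown because they alone tell the 2 Pkm transcripts' proteins apart in these tables. Both are exon 9 of 11 and 167 bases long, on the plus strand of chromosome 9 in GRCm38 (M1 at chr9:59675029-59675195, M2 at chr9:59675568-59675734), taken from the GENCODE M21 transcripts. Capitals mark the 64 positions at which they differ, and 61.68% of bases are identical.
Pkm M1 exon: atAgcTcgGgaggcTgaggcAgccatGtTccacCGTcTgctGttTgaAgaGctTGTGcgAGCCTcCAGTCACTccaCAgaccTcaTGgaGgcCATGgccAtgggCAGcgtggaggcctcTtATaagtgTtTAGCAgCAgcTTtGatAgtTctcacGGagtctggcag
Pkm M2 exon: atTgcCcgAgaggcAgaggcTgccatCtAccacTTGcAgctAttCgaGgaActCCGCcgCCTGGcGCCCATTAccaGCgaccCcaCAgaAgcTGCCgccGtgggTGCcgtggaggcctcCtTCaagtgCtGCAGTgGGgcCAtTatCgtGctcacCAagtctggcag
The M1 transcript held between 69.11% and 75.14% of Pkm estimated counts in the 18 libraries. It held 74.8%, 70% and 73.59% in WT 1, 2 and 3, and 70.41%, 75.14% and 74.9% in Irx3KO_Irx4KO 5, 7 and 10, so these groups overlapped (exact two-sided permutation test, p = 0.5). The widest difference was between Irx3KO, 70.42% ± 1.65 (SD, n = 3), and Irx4KO, 74.08% ± 1.25 (SD, n = 3), with p = 0.1 in the exact permutation test, the smallest that 3 against 3 libraries allow, and 0.467 after adjustment over 7 comparisons. The tables list these transcripts at 2221 (M1) and 2192 (M2) bases against 2041 and 2432 bases in GENCODE M21, so the authors' transcript models were not the same, and the share is that of the 2 named transcripts.

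**Figure D2:**
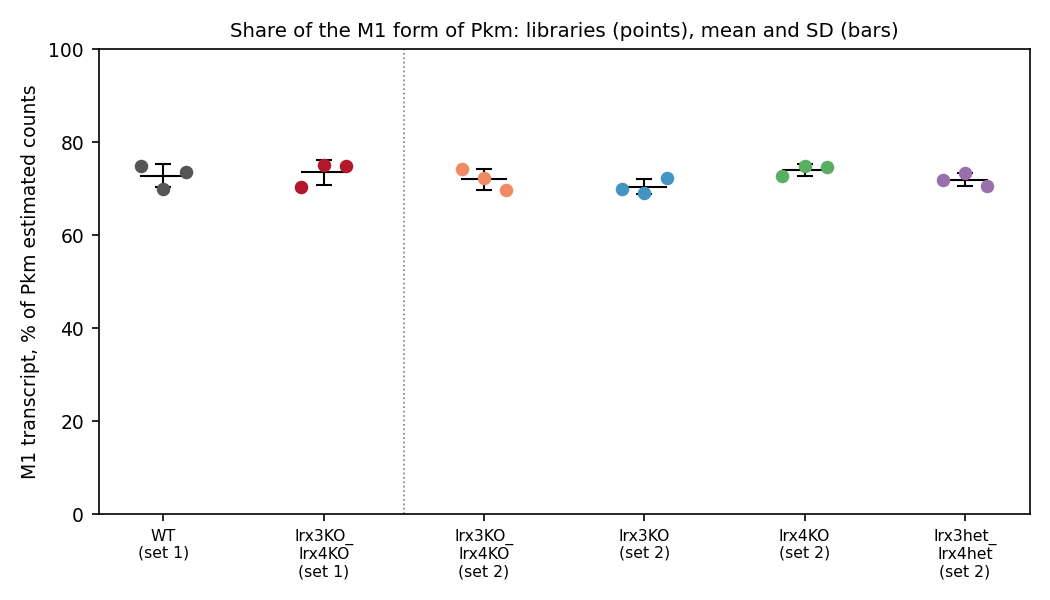
Percent of Pkm estimated counts on the M1 transcript in each library (points), by group, with the group mean ± SD (bars). All 18 libraries lie between 69.11% and 75.14%, and the groups overlap except Irx3KO and Irx4KO.

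In the comparison of Irx3KO_Irx4KO with WT in set 1, one of the 40 genes was called, Ppargc1a, which was lower in the libraries labelled Irx3KO_Irx4KO. None of the 25 glycolysis and hypoxia genes passed the threshold (0 of 25), and 1 of 15 fatty acid genes did. Of all genes tested, 1.44% were called, 0.644% as higher and 0.795% as lower, so a single call among 40 genes is near the background share.

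PGC-1α, the product of Ppargc1a, is the coactivator that drives mitochondrial and fatty acid oxidation genes. Ppargc1a stood at 154.8, 129.0 and 134.8 CPM in WT 1, 2 and 3, and at 89.84, 111.5 and 111.5 CPM in Irx3KO_Irx4KO 5, 7 and 10. All 3 knockout libraries lay below all 3 WT libraries, and library 5 was lowest. The means were 104.3 ± 12.52 and 139.5 ± 13.52 CPM (SD, n = 3 each), a log2 fold change of -0.42 ± 0.089 (SE, 95% interval -0.59 to -0.25, adjusted p = 0.024, edgeR quasi-likelihood test). Most of the counts, 89.47% to 97.86%, were on 1 transcript. In tissue of mixed cells, fewer cells that express a gene and less RNA in each cell cannot be told apart. Without Irx3KO_Irx4KO 5 the call remained (-0.32, adjusted p = 0.0380, edgeR), while 576 genes in all were called in place of 239. The call was lost in a fit of set 1 alone (-0.43, adjusted p = 0.266, same test), which called 16 genes in all, without WT 1 (-0.34, adjusted p = 0.140) and without WT 3 (-0.44, adjusted p = 0.0532). It was also lost with genotype as the only term over all 18 libraries (-0.25, adjusted p = 0.405, edgeR), where WT was set against Irx3KO_Irx4KO libraries of both sets.

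Ppara, the fatty acid receptor that PGC-1α coactivates, had as large a fold change with a wide error, at 7.116, 4.586 and 7.013 CPM in WT against 3.035, 5.501 and 5.203 CPM in Irx3KO_Irx4KO (log2 fold change -0.45 ± 0.28, adjusted p = 0.505, edgeR). The groups overlapped, and Ppara had the second widest spread between libraries of a group among the 40 genes.

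Cpt1a stood at 118.6, 92.09 and 119.1 CPM in WT and at 84.15, 95.34 and 100.1 CPM in Irx3KO_Irx4KO (-0.24 ± 0.082, adjusted p = 0.185, edgeR). WT 2 fell among the knockout libraries here, while WT 1 and WT 3 were above all of them. Acsl1, which activates long-chain fatty acids to acyl-CoA, stood at 99.97, 52.86 and 99.64 CPM in WT against 54.76, 75.22 and 59.14 CPM (-0.42 ± 0.23, adjusted p = 0.460, edgeR), with WT 2 the lowest of the 6 libraries. Acadvl, which opens beta oxidation of very long chains, gave -0.16 ± 0.084 (adjusted p = 0.418, edgeR). In the last step shown, Etfdh, which passes electrons from beta oxidation to the respiratory chain, gave -0.08.

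Over the 15 fatty acid genes the log2 fold change was below 0 in 13 and above 0 in 2 (Acaa2 and Cpt2), with a median of -0.109. Over all genes 47.8% were below 0 and the median was 0.009. Only Ppargc1a had no overlap between the groups and lay lower, where 7.04% of all genes did. Much of the list's spread was between WT libraries: WT 2 was the lowest of the 3 WT libraries for 13 of 15 fatty acid genes (33.49% of all genes), and WT 1 the highest for 13 of 15 (33.25% of all genes). Without WT 2 the median was -0.190, with 14 of 15 below 0, and without WT 1 it was -0.055. Without Irx3KO_Irx4KO 5 it was -0.124, with 15 of 15 below 0. WT 2 also had the highest sum of the 9 macrophage and leukocyte markers, 194.5 CPM against 116 and 111.1 CPM in WT 1 and 3. Its sums for skeletal muscle (153.6 against 307.6 and 282.8 CPM) and erythroid markers (3511 against 7016 and 5029 CPM) were the lowest. So was that for epicardial, cushion and fibroblast markers (2405 against 3228 and 3181 CPM). For atrial markers WT 2 was the highest (2087 against 1838 and 1575 CPM). The part of these differences in the result was not tested.

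**Figure D3:**
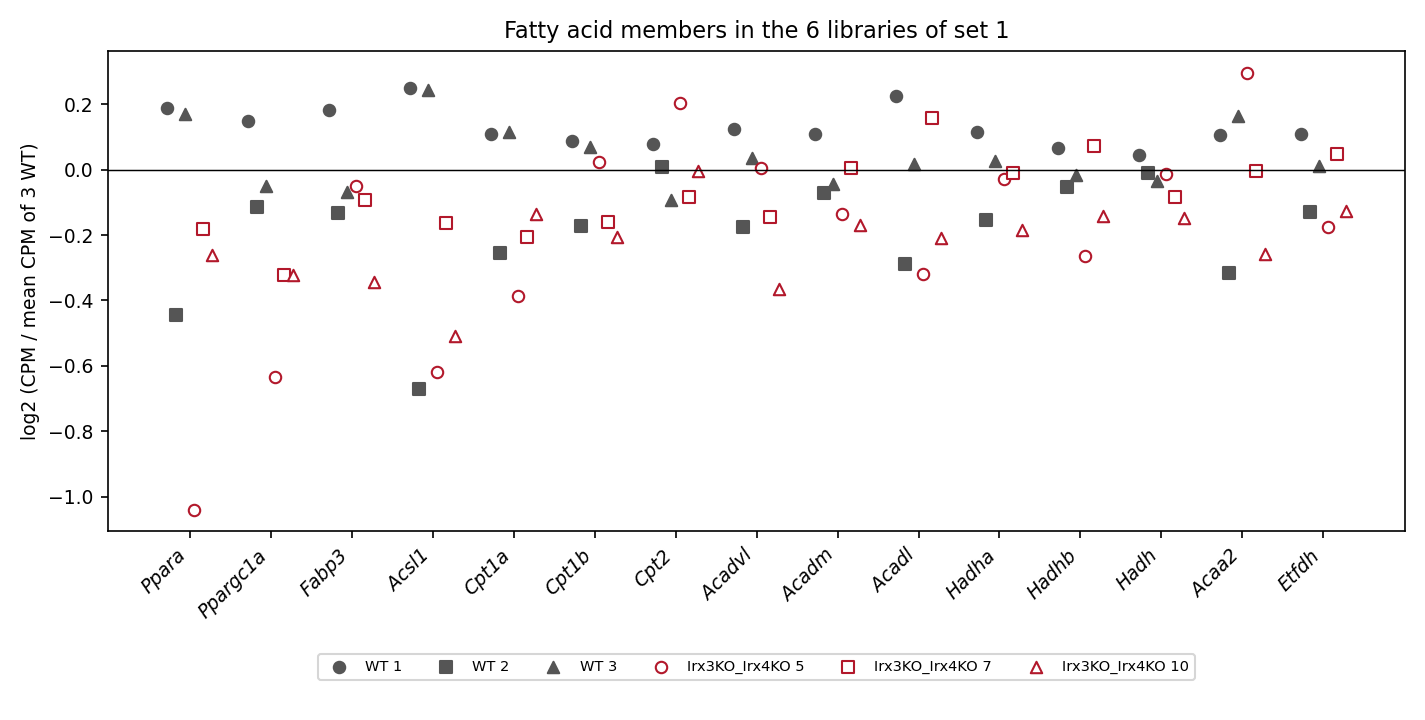
Log2 of the CPM of each of the 15 fatty acid genes over its WT mean in the 6 set 1 libraries (WT 1, 2, 3 and Irx3KO_Irx4KO 5, 7, 10), 1 column per gene. WT 2 lies below the other WT libraries for 13 of 15 genes, and Ppargc1a is the only gene whose groups do not overlap.

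On the glucose side, the fold changes were spread evenly. Of the 25 genes, 11 were below 0 and 14 above, with a median of 0.024, and their summed level was 10250 to 12190 CPM in Irx3KO_Irx4KO and 10420 to 11440 CPM in WT. Unadjusted p was below 0.05 for 5 of 25, 3 higher and 2 lower, against 13.8% of all genes.

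Pdk4, a kinase that shuts pyruvate dehydrogenase and so spares glucose, had the smallest p of the glucose genes. It stood at 91.32, 62.42 and 94.46 CPM in WT and at 59.63, 63.32 and 62.07 CPM in Irx3KO_Irx4KO, a log2 fold change of -0.42 ± 0.11 (adjusted p = 0.0720, edgeR). As with Cpt1a, WT 2 lay inside the knockout range, and without it Pdk4 was called (-0.59, adjusted p = 0.00106, edgeR). Slc2a1, the glucose transporter more abundant than Slc2a4, had the opposite sign: 190.5, 270.7 and 183.1 CPM in WT against 323.5, 257.2 and 233.3 CPM (0.34 ± 0.13, adjusted p = 0.259, edgeR). WT 2 again fell inside the knockout range, and Slc2a1 was called as higher without it (0.54, adjusted p = 0.0313, edgeR).

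Adm encodes adrenomedullin, a peptide induced by hypoxia. It was a low-level gene, with 5.380, 4.742 and 5.224 CPM in WT and 8.748, 6.563 and 6.961 CPM in Irx3KO_Irx4KO (0.54 ± 0.15, adjusted p = 0.0796, edgeR). All 3 knockout libraries were above all 3 WT libraries. Pgam2 separated too, at 197.1, 190.1 and 184.8 CPM against 236.8, 223.0 and 206.4 CPM (0.22 ± 0.072, adjusted p = 0.163, edgeR). These 2 were the only glycolysis and hypoxia genes with no overlap, both higher (7.97% of all genes were without overlap and higher). Hk1 was called as lower only without Irx3KO_Irx4KO 10 (-0.49, adjusted p = 0.0233, edgeR). Its 6 set 1 libraries ran 340.9, 371.8 and 337.3 CPM in WT and 204.7, 292.3 and 376.2 CPM in Irx3KO_Irx4KO, so library 10 was the highest of all 6.

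For the most abundant glycolytic genes and Hif1a the intervals included 0. Pkm had a log2 fold change of 0.016 (95% interval -0.13 to 0.16), Ldha of 0.13 (-0.070 to 0.34), Hif1a of -0.03 (-0.24 to 0.17) and Vegfa, the endothelial growth factor induced by hypoxia, of 0.02 (-0.18 to 0.23). Bnip3, a mitophagy receptor induced by hypoxia, had the opposite sign to Adm (-0.24, adjusted p = 0.356, edgeR).

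**Figure D4:**
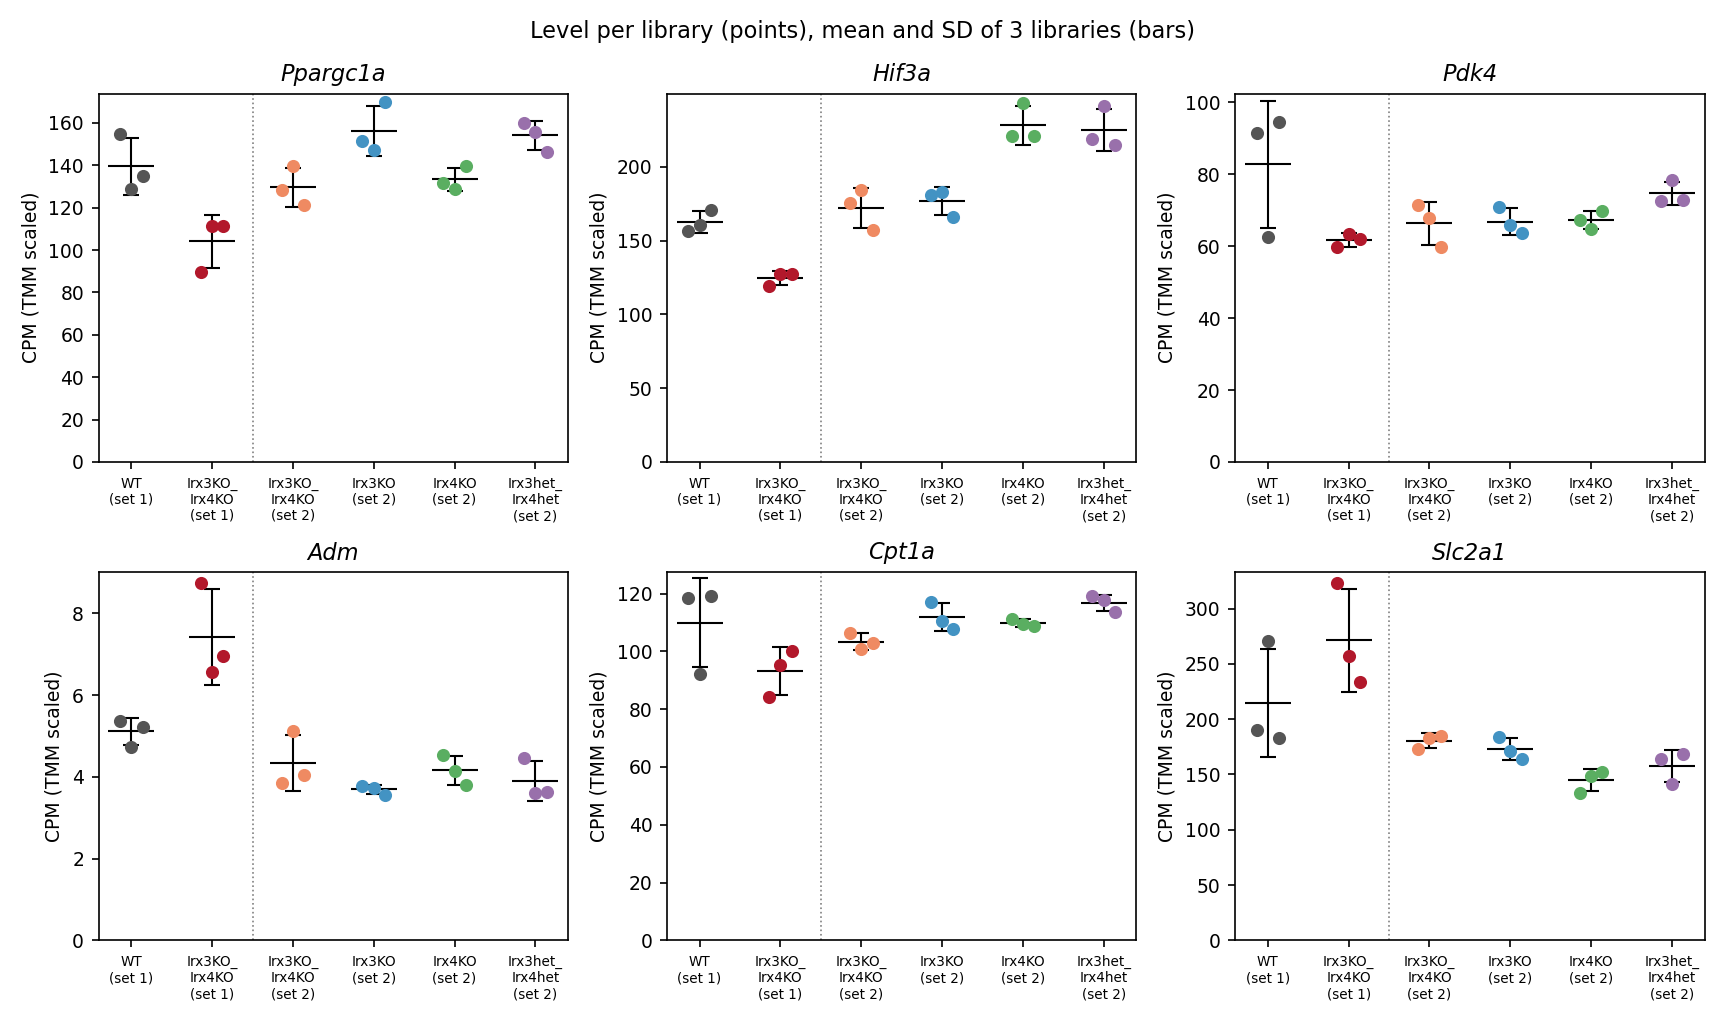
CPM of Ppargc1a, Hif3a, Pdk4, Adm, Cpt1a and Slc2a1 in each of the 18 libraries (points) by group, with group mean ± SD (n = 3). Ppargc1a and Hif3a are lower in Irx3KO_Irx4KO than in WT within set 1, and WT 2 stands apart from WT 1 and 3 for Pdk4, Cpt1a and Slc2a1.

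Other genes of these routes came from lists of named genes. Of 35 other glucose genes 0 were called against WT, with 16 log2 fold changes below 0, 19 above and a median of 0.000. Of 26 other hypoxia genes 1 was called, Hif3a, and of 45 other fatty acid genes 1 was called, Rxra, both lower. Among all genes 0.795% were called as lower. The median of the other fatty acid genes was -0.057, with 32 below 0 and 13 above, where 47.8% of all genes were below 0. Rxra encodes the retinoid receptor that pairs with PPARα, and it fell from 94.47 to 78.75 CPM (-0.26 ± 0.064, adjusted p = 0.0490, edgeR). That call was lost with RLE size factors (adjusted p = 0.0520, edgeR) and in 6 other settings.

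Marker genes of other cells moved in the same libraries. Of the 7 atrial markers 3 were called as higher in Irx3KO_Irx4KO (Stard10, Myl7 and Myl4), where 0.644% of all genes were. The sum of the atrial list ran from 2537 to 2811 CPM against 1575 to 2087 CPM in WT. Cardiomyocyte markers summed to 26450 to 29030 CPM against 24570 to 25700 CPM, with 1 of 10 called as higher (Myh6). Erythroid markers gave 2654 to 4539 CPM against 3511 to 7016 CPM with 0 of 10 called, and macrophage and leukocyte markers 91.53 to 127 CPM against 111.1 to 194.5 CPM with 1 of 9 called as lower (Lyz2). Tnnt3 was the 1 skeletal muscle marker called, as higher, and no marker of the other lists was. No marker was at 0 in all libraries. Their part in the result for Ppargc1a was not tested.

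Within set 2, none of the 40 genes was called in any of 6 comparisons between genotypes. Background shares were 0.379% called for Irx3KO_Irx4KO against Irx3KO, 0.0241% against Irx4KO and 0.0903% against the double heterozygotes, 0.289% for Irx3KO against Irx4KO, 0.00602% for Irx3KO against the double heterozygotes and 0.0120% for Irx4KO against the double heterozygotes. The 3 comparisons of Irx3KO_Irx4KO share its libraries 2, 3 and 4, so their values below are side by side and do not add to each other. Over the 40 genes and these 6 comparisons the adjusted p was 0.204 or more (edgeR).

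Ppargc1a stood in set 2 at 128.2, 139.5 and 121.3 CPM in Irx3KO_Irx4KO, at 131.6, 128.9 and 139.5 CPM in Irx4KO, at 151.4, 147.4 and 169.9 CPM in Irx3KO and at 160.1, 155.9 and 146.4 CPM in the double heterozygotes. The 3 Irx3KO_Irx4KO and 3 Irx4KO libraries were all below the 6 others, and overlapped each other. The share of all genes with such a split was not counted. Log2 fold changes of Irx3KO_Irx4KO were -0.27 ± 0.089 against Irx3KO (95% interval -0.44 to -0.095, adjusted p = 0.329, edgeR), -0.25 ± 0.089 against the double heterozygotes (-0.42 to -0.075, adjusted p = 0.372) and -0.04 against Irx4KO (adjusted p = 0.989). Irx3KO against Irx4KO gave 0.23 ± 0.089 (adjusted p = 0.439, edgeR), and Irx4KO against the double heterozygotes -0.21 ± 0.089 (adjusted p = 0.837). Ordered by mean, the groups ran Irx3KO at 156.2, double heterozygotes at 154.1, Irx4KO at 133.3 and Irx3KO_Irx4KO at 129.7 CPM. Neighbours differed by less than their spread except across the middle step, and none of these differences passed the threshold.

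Most fatty acid genes had log2 fold changes below 0 in Irx3KO_Irx4KO of set 2 as well. Against Irx3KO 14 of 15 were below 0 (median -0.091, over all genes 0.004 with 48.8% below 0). Of these, 5 lay without overlap below Irx3KO (Ppargc1a, Cpt1a, Cpt1b, Acadvl and Hadh), where 8.41% of all genes did. Among glycolysis and hypoxia genes Ldhb and Hif1a were lower and Adm higher without overlap (9.03% of all genes were so and higher). Cpt1b showed the next smallest p, at 318.3, 299.1 and 302.6 CPM in Irx3KO_Irx4KO and 346.9, 339.4 and 359.9 CPM in Irx3KO (-0.19 ± 0.075, adjusted p = 0.504, edgeR). Acadvl gave -0.13 (adjusted p = 0.804).

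Against the double heterozygotes 14 of 15 were below 0 too (median -0.103), and 3 were without overlap and lower (Ppargc1a, Cpt1a and Cpt1b, background 7.95%). Cpt1a stood at 106.5, 100.8 and 102.9 CPM against 119.0, 117.8 and 113.6 CPM (-0.18 ± 0.082, adjusted p = 0.506, edgeR), and Cpt1b gave -0.14 (adjusted p = 0.553). Against Irx4KO 13 of 15 were below 0 (median -0.060, over all genes -0.000 with 50.1% below 0), with Acsl1, Cpt1a and Etfdh lower without overlap (background 7.59%) and Hadh higher (background 7.36%). Acsl1 gave -0.34 (adjusted p = 0.924, edgeR), Ppara -0.38 and Hadh, which runs the third step of beta oxidation, 0.06. Irx3KO_Irx4KO 4 was the lowest of its 3 libraries for 11 of 15 fatty acid genes and 17 of 25 glycolysis and hypoxia genes (32.41% of all genes). Without it, 11 of 15 fatty acid genes were below 0 against Irx3KO (median -0.049). Against the double heterozygotes 12 were (-0.074), and against Irx4KO 10 were (-0.025). Without Irx3KO_Irx4KO 2 these medians were -0.134, -0.149 and -0.101. Without Irx3KO 4, 10 of 15 were below 0 against Irx3KO (-0.052).

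On the glucose side, 7 genes had no overlap between Irx3KO_Irx4KO and Irx4KO, all higher in Irx3KO_Irx4KO: Slc2a1, Pfkl, Pgk1, Pgam1, Eno1, Pkm and Ldha (7.36% of all genes were so). None passed the threshold. Pfkl stood at 330.1, 291.0 and 283.1 CPM against 251.4, 252.4 and 267.8 CPM in Irx4KO (0.23 ± 0.078, adjusted p = 0.785, edgeR). Slc2a1 stood at 172.6, 183.2 and 185.2 CPM against 133.3, 148.5 and 152.2 CPM (0.32 ± 0.13, adjusted p = 0.852), and Pkm gave 0.18 ± 0.074 (adjusted p = 0.852). The list's median was 0.071, with 9 of 25 below 0, and unadjusted p was below 0.05 for 3 of 25 (5.78% of all genes). Without Irx3KO_Irx4KO 3 the median was -0.011, with 14 of 25 below 0. Without Irx3KO_Irx4KO 4 it was 0.129, with 5 of 25 below 0.

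Against Irx3KO and the double heterozygotes the glucose and hypoxia genes gave medians of 0.028 and 0.062, and unadjusted p was below 0.05 for 0 of 25 in each, where 7.91% and 9.81% of all genes were. Hif1a, the oxygen-sensitive factor, was without overlap below both, at 441.4, 373.0 and 459.6 CPM against 473.1, 491.1 and 496.2 CPM in Irx3KO (-0.20 ± 0.10, adjusted p = 0.689, edgeR) and 483.9, 469.9 and 473.2 CPM in the double heterozygotes (-0.16, adjusted p = 0.643). Slc2a1 was the 1 gene without overlap and higher against the double heterozygotes (background 8.07%), and Pdk4 was lower there with Hif1a. Ldhb gave -0.11 and Pfkp 0.16 against Irx3KO (adjusted p = 0.706 and 0.724, edgeR), and Pfkl 0.15 and Pgk1 0.15 against the double heterozygotes (adjusted p = 0.552 and 0.646).

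**Figure D5:**
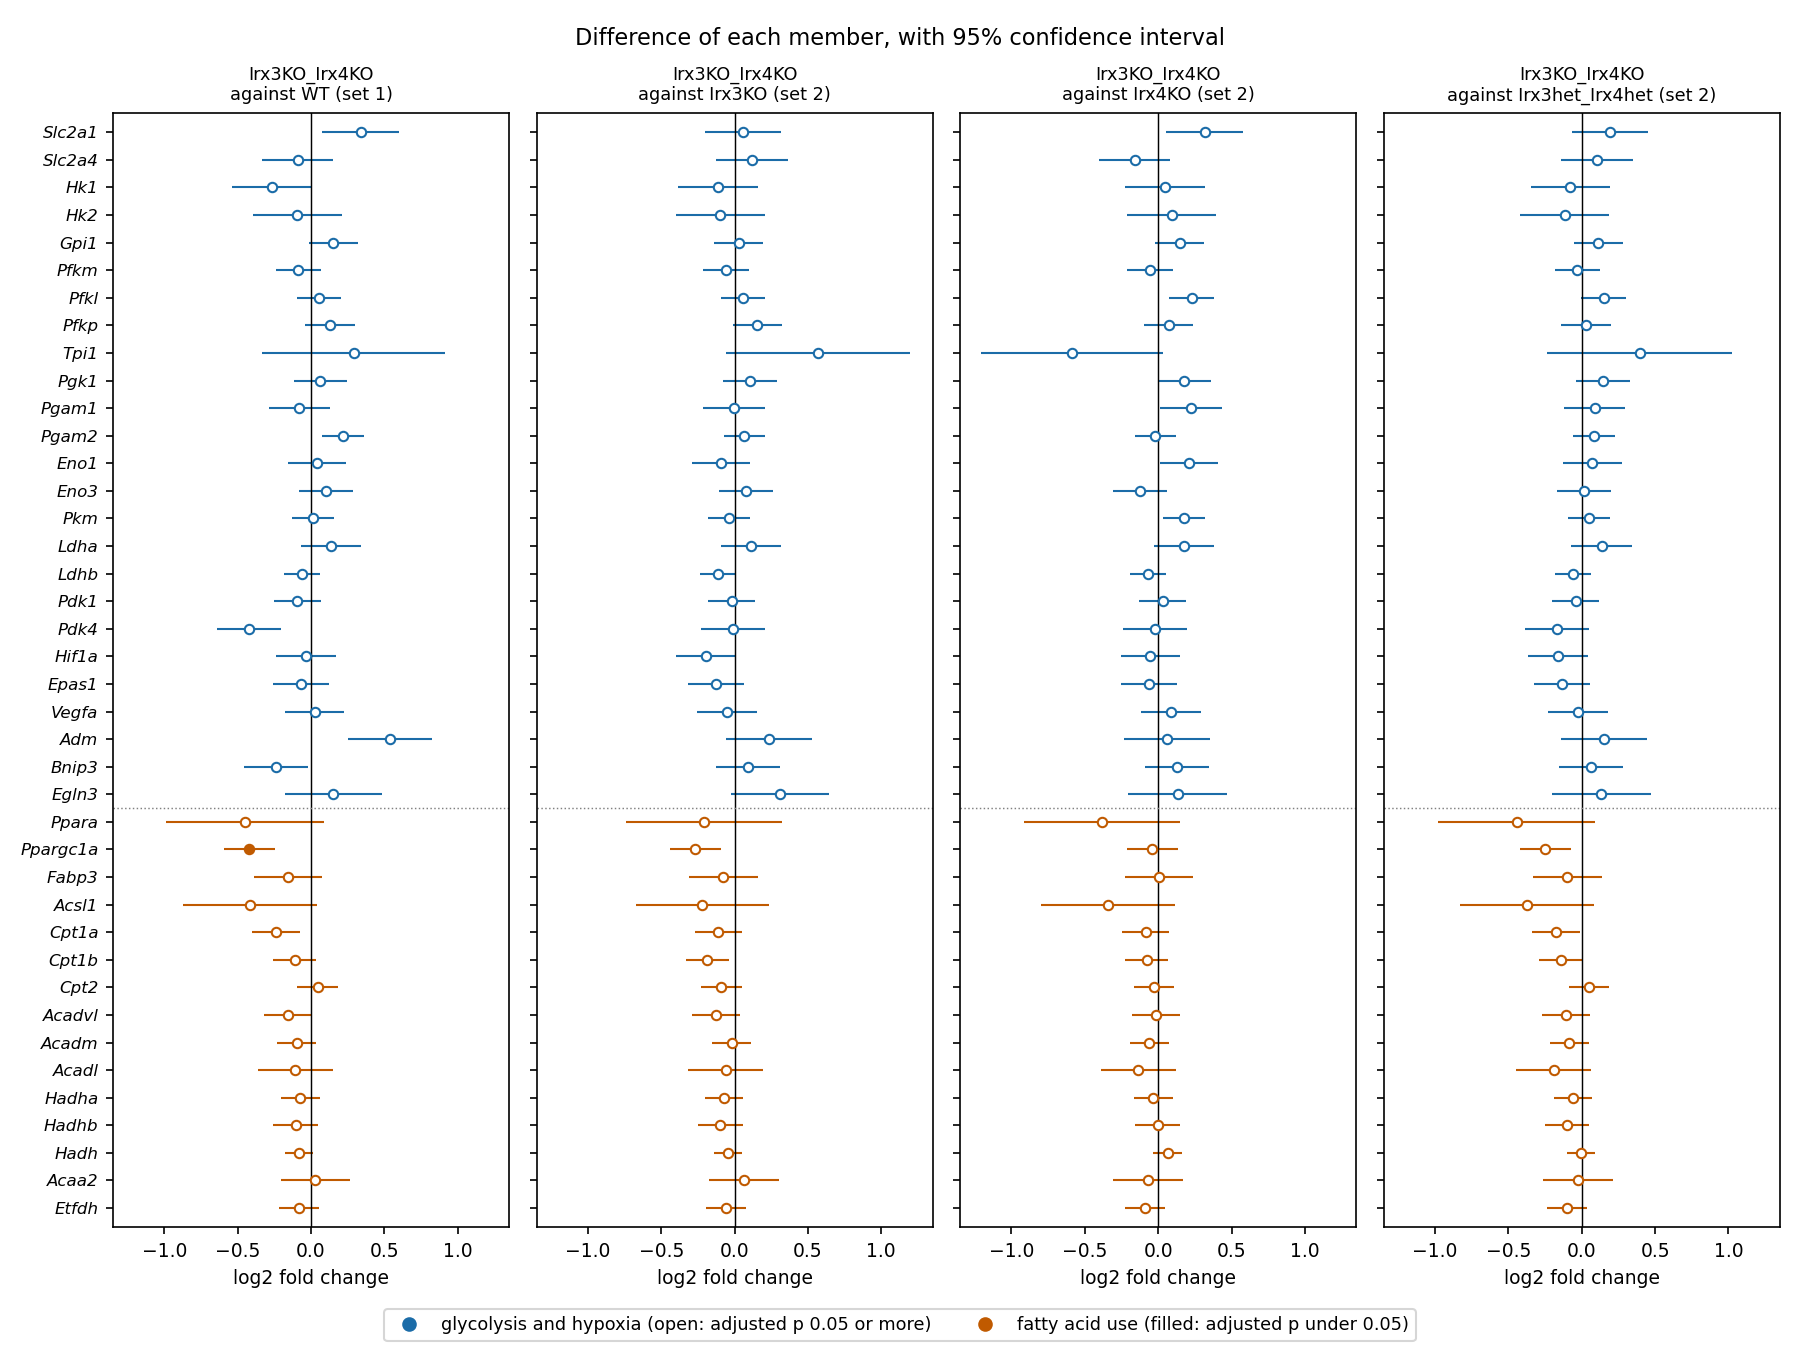
Log2 fold change with its 95% interval for each of the 40 genes in the 4 comparisons of Irx3KO_Irx4KO with WT (set 1), Irx3KO, Irx4KO and the double heterozygotes (set 2), with filled points for an adjusted p below 0.05. The only filled point is Ppargc1a against WT, and the fatty acid genes lie left of 0 more often than right.

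The 2 single knockouts were set against each other in set 2. Of the glycolysis and hypoxia genes 8 of 25 were below 0 in Irx3KO against Irx4KO (median 0.059), where 50.6% of all genes were, and 7 of 25 had an unadjusted p below 0.05 (8.62% of all genes). Without overlap, 8 were higher and 3 lower in Irx3KO, where 11.0% and 11.8% of all genes were. Eno1, enolase, stood at 549.3, 543.0 and 485.9 CPM in Irx3KO and 409.7, 420.4 and 449.9 CPM in Irx4KO (0.30 ± 0.10, adjusted p = 0.313, edgeR), and Pkm gave 0.21 ± 0.074 (adjusted p = 0.349). Hadh gave 0.11 (adjusted p = 0.557) and Cpt1b 0.11 (adjusted p = 0.798), and the median of the 15 fatty acid genes was 0.040, with 9 above 0.

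Tpi1, triose phosphate isomerase, gave the smallest p of any member in set 2 (-1.16 ± 0.32, adjusted p = 0.204, edgeR), but its counts are uncertain. It ran from 10.18 to 33.24 CPM, far below its neighbours in the pathway, and its main transcript took between 5.25% and 80.0% of its counts in single libraries. The genome holds near-identical copies of Tpi1, Pgam1, Eno1, Ldha and Pgk1 among others, and how the authors' estimates split reads between them is not given in the sources used here.

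Each single knockout was also set against the double heterozygotes. For Irx3KO the glycolysis and hypoxia median was 0.025 and the fatty acid median -0.022, and 0 of 40 genes had an unadjusted p below 0.05 (4.38% of all genes). Below 0 were 11 of 25 and 9 of 15 (49.9% of all genes). Without overlap, 2 glycolysis and hypoxia genes and 1 fatty acid gene were higher (5.86% of all genes) and 1 and 0 lower (5.70%). The smallest p were those of Cpt2 (0.14), Acadl (-0.13) and Acadm (-0.06) among fatty acid genes, and of Eno1 (0.17), Pfkp (-0.13) and Pdk4 (-0.16). For Irx4KO the medians were -0.064 and -0.062, with 18 of 25 and 13 of 15 below 0 (49.1% of all genes), and unadjusted p was below 0.05 for 2 of 25 and 1 of 15 (5.61%). Without overlap, 1 glycolysis and hypoxia gene and 1 fatty acid gene were higher (7.26% of all genes) and 6 and 2 lower (6.86%). After Ppargc1a, Hadh gave -0.07 and Hadhb -0.10 among fatty acid genes. On the glucose side Tpi1 gave 0.98, Slc2a4 0.27 ± 0.13 (43.96, 49.26 and 43.51 CPM against 38.61, 39.48 and 35.43 CPM, adjusted p = 0.886, edgeR) and Pkm -0.13.

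Hif3a, from the list of other hypoxia genes, encodes another HIF-α protein, whose short forms hold HIF-1 back. It was called in 3 comparisons. In set 1 it stood at 156.5, 160.7 and 171.1 CPM in WT and at 119.3, 127.7 and 127.3 CPM in Irx3KO_Irx4KO (-0.38 ± 0.070, adjusted p = 0.0117, edgeR). In set 2 it stood at 175.4, 184.2 and 157.3 CPM in Irx3KO_Irx4KO, 181.2, 183.2 and 165.9 CPM in Irx3KO, 220.8, 243.6 and 220.7 CPM in Irx4KO and 219.0, 241.4 and 214.7 CPM in the double heterozygotes. All 6 libraries without Irx3 lay below all 6 that keep a copy of it. How many of all genes split in this way was not counted.

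Its fold change was -0.39 for Irx3KO_Irx4KO against the double heterozygotes (adjusted p = 0.0491, edgeR) and -0.37 for Irx3KO against Irx4KO (adjusted p = 0.0310). It was -0.41 for Irx3KO_Irx4KO against Irx4KO (adjusted p = 0.0708, edgeR), -0.35 for Irx3KO against the double heterozygotes (adjusted p = 0.507) and -0.04 for Irx3KO_Irx4KO against Irx3KO. The call against WT was lost with genotype as the only term (-0.13, adjusted p = 0.800, edgeR), in a fit of set 1 alone (-0.39, adjusted p = 0.160) and without WT 3 (-0.35, adjusted p = 0.0520). Both calls in set 2 were lost when single libraries were left out, with adjusted p from 0.060 to 0.264 against the double heterozygotes and from 0.071 to 0.190 for Irx3KO against Irx4KO. The first was also lost with the length trend removed (-0.33, adjusted p = 0.110, edgeR) and with the Y-linked covariate (-0.39, adjusted p = 0.0658), and the second with counts from TPM (-0.35, adjusted p = 0.0935) and with genotype as the only term (-0.37, adjusted p = 0.498). Hif3a against Irx4KO was called by DESeq2 (-0.41, adjusted p = 4.462e-05) and with genotype as the only term (-0.62, adjusted p = 0.0446, edgeR), and in Irx3KO against the double heterozygotes by DESeq2 (-0.35, adjusted p = 0.00296). With genotype as the only term, Irx3KO_Irx4KO pools libraries of both sets, so its values there also carry the difference between the sets. Across these comparisons Hif1a and Epas1, the 2 HIF-α genes among the 40, gave no call.

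More of these genes were called between sets than between genotypes. Between the libraries labelled Irx3KO_Irx4KO of set 1 and set 2, 12 of the 40 genes were called, where 18.8% of all genes were (9.04% higher and 9.74% lower in set 1). Of the glycolysis and hypoxia genes 8 were higher in set 1 and 1 lower, with a median of 0.229 against 0.018 over all genes. Adm stood at 8.748, 6.563 and 6.961 CPM in set 1 and 3.842, 5.135 and 4.052 CPM in set 2 (0.77, adjusted p = 0.00194, edgeR), and Slc2a1 at a mean of 271.4 against 180.4 CPM (0.59, adjusted p = 0.00651). Higher too were Gpi1 (0.35), Vegfa (0.37), Ldha (0.35), Pgk1 (0.28), Ldhb (0.25) and Pgam2 (0.22), and Hk1 was lower (-0.45). Among fatty acid genes Hadh (0.22) and Cpt2 (0.22) were higher in set 1 and Ppargc1a lower (-0.31, adjusted p = 0.0212, edgeR). When the trend of each library with transcript length was removed, 2 of the 40 genes and 1255 of all 16607 were called, against 3119 of all genes before. Handling of the libraries and a difference between embryos cannot be told apart. WT was set against libraries of set 2 only with genotype as the only term, which pools the Irx3KO_Irx4KO libraries of both sets.

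Hypoxia-inducible factors bind DNA at sites with the core ACGTG or GCGTG, and promoters of the members were searched for both cores on both strands. The windows were the 250 bases before each start of a gene in RefSeq (GRCm38.p6). A gene with several windows was given the most matches of any 1 of them, and so were the genes used for comparison below. Windows of 36 of 40 genes were searched (not Slc2a4, Epas1, Cpt1b and Acaa2). Acaa2 was left out by a choice based on its place in the genome, whether or not it has a window. The share of fatty acid genes below therefore does not cover it. For the other genes, too, being left out does not show that a gene lacks a window. The 27025 genes used for comparison below were not cut by the same choice, so they may include genes left out of the members. CACGTG is its own reverse complement and counts once on each strand. A core was present for 5 of 5 hypoxia factors and targets, 15 of 18 glucose genes and 8 of 13 fatty acid genes, against 11226 of 27025 genes (41.5%). Both cores hold a CG, and the 27025 genes were not matched to the members for base composition or level. Whether the members hold more cores than like promoters was not tested. A match is a run of letters, not a bound site. Bnip3 and Slc2a1 are shown, the first as a hypoxia target with 5 matches (2 ACGTG and 3 GCGTG), as many as Ldha, the second as the glucose transporter among the members that differed most between sets (1 of each). Capitals mark the cores, on either strand. Bnip3 is read from the minus strand at chr7:138909507-138909756 and Slc2a1 from the plus strand at chr4:119108495-119108744.
Bnip3 promoter: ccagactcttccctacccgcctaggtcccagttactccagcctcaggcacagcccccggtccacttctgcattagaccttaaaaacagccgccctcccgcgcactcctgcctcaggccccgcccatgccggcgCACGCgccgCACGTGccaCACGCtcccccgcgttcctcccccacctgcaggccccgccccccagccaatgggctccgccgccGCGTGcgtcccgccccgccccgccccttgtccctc
Slc2a1 promoter: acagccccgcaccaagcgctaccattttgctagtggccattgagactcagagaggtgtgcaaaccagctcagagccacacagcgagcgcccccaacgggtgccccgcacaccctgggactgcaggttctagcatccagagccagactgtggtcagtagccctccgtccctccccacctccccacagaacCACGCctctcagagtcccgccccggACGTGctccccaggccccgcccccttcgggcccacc
Between sets Slc2a1 was higher in set 1 and Bnip3 was not called (0.32, adjusted p = 0.0578, edgeR), and between genotypes neither gene was called.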

How the data were processed

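PolyA RNA of ventricles was sequenced in 18 libraries, grouped by their titles. The authors deposited tables with an estimated count and a TPM for each transcript, and TPM is already scaled for length and library total, per the file headers. Quantification was by kallisto 0.42.2, with mm9 as the genome build, per the submitters' processing notes. Neither strand setting nor transcript release is stated in the sources used here. Of 88943 transcripts, 78030 (87.73%) matched GENCODE M21 (GRCm38) by ID, and the unmatched ones held 6.42% to 6.77% of counts. Counts were summed per gene, rounded, and tested in R 4.3.3 with edgeR 4.0.16 (quasi-likelihood, robust, TMM, filterByExpr), with all 18 libraries in 1 fit of 6 groups (genotype within set) and Benjamini-Hochberg adjustment over 16607 genes at 0.05. The fit was tested on simulated data. The SE is the log2 fold change divided by the root of F, and intervals are 1.96 SE either way.

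The genes, lists and sets were chosen with earlier results of these data known. Named were Irx3, Irx4, every member past the threshold, members with the smallest p up to 3 of a class, and up to 2 genes past the threshold of each other list. A few members were named besides, after their values were seen, for their role or their order of libraries. No pair of replicates agreed within sampling noise (smallest chi-square per gene 6.306). Alternatives were RLE size factors, DESeq2 1.42.0, other filters, counts from TPM, 1 set only, no set term, a length trend, a replicate block, a Y-linked covariate (added after seeing the data) and leaving out each library. Without the set term, genotype was the only term and the Irx3KO_Irx4KO libraries of both sets formed 1 group. Cores were counted in RefSeq promoters (GRCm38.p6).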

Additional observations from a re-analysis of the deposited data

Results flagged for a closer look

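The 6 libraries labelled Irx3KO_Irx4KO were examined for a library that stands apart, in each of the 40 genes. For 3 genes 1 library lay far above the other 5, where chance alone gives about 1 in 20 such groups, or about 2 of 40, if the libraries are alike. They are not: the group pools 3 libraries of each set, the sets differed in 18.8% of all genes, and all 3 high values were in libraries of set 1. Eno3, the muscle enolase, was at 466.4 CPM in Irx3KO_Irx4KO 7 and between 319.7 and 373.7 CPM in the others. Cpt1b was at 363.3 CPM in Irx3KO_Irx4KO 5 and between 299.1 and 320.1 CPM in the others. Etfdh was at 218.2 CPM in Irx3KO_Irx4KO 7 and between 178.7 and 193.2 CPM in the others. None of the 3 genes was called between genotypes.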

How the results depend on the processing

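For the members that the naming rule picked in each comparison, 822 values were recomputed under the alternatives: 766 kept their direction and side of the threshold, 47 lost the call, 7 gained one and 2 reversed. Between genotypes the only call among these members was Ppargc1a against WT, so most kept values were of genes that stayed uncalled. Every lost call other than Ppargc1a against WT was between the sets. Slc2a1 and Hk1 against WT, Hif3a and Rxra stand outside this tally, with their values given above. The reversals were Ldhb in Irx3KO_Irx4KO against Irx3KO with genotype as the only term (0.018) and Pgam2 between the sets with the length trend removed (-0.022). In Irx3KO_Irx4KO against WT, DESeq2 called 2 glycolysis and hypoxia genes, Adm as higher (0.54, adjusted p = 0.0148) and Pdk4 as lower (-0.42, adjusted p = 0.0146), and leaving out single libraries gave 0 to 2. The fatty acid count there was 0 in a fit of set 1 alone and 0 with genotype as the only term, and 0 to 2 without single libraries (0 without WT 1 or WT 3, 2 without WT 2, with Cpt1a at -0.35). Ppargc1a remained called in this comparison by DESeq2 (-0.41, adjusted p = 0.00108), with RLE factors, both other filters, counts from TPM, the length trend removed and the Y-linked covariate (-0.44, adjusted p = 0.0354, edgeR). With genotype as the only term, the Irx3KO_Irx4KO group took in its set 1 libraries, so its comparisons with set 2 groups also carry the difference between the sets. In that fit 1 fatty acid gene, Ppargc1a, was called against Irx3KO (-0.42, adjusted p = 0.0417, edgeR) and 1 against the double heterozygotes (-0.40, adjusted p = 0.0496, edgeR). Calls over all genes rose from 63 to 284 and from 15 to 317. DESeq2 called 1 glycolysis gene, Tpi1, in Irx3KO against Irx4KO (-1.15, adjusted p = 0.0446), and 215 genes in all against 48. Between the sets 12 genes were called, 2 with the length trend removed and 7 to 15 without single libraries (7 without Irx3KO_Irx4KO 3), with 3119, 1255 and 1693 to 3876 calls over all genes. Over all genes, Irx3KO_Irx4KO against WT gave 239 calls in the fit reported, 595 with DESeq2, 105 with genotype as the only term, 16 in a fit of set 1 alone, 576 without Irx3KO_Irx4KO 5, 527 without Irx3KO_Irx4KO 10, 67 without WT 1 and 124 without WT 3.

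Of 15 same-numbered pairs in set 2, 0 correlated above 0.1 (-0.19 to 0.082), where pairs of unlike number ran from -0.19 to 0.24. These correlations gave no sign of pairing by replicate number, but cannot show what the numbers stand for. With the replicate number as a block over set 2, 0 of the 40 genes were called in the 6 comparisons, and Ppargc1a gave -0.31 against Irx3KO. Under the block Hif3a was called in Irx3KO_Irx4KO against Irx4KO (-0.41, adjusted p = 0.0327, edgeR) and not in Irx3KO against Irx4KO (-0.34, adjusted p = 0.0639). No paired analysis was possible in set 1 because its groups share no number. Depth limits Ppara and Adm most, with as few as 127 and 91 counts in a library. Estimates that split reads between near-identical copies limit Tpi1.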
